A study of Homo sapiens with 12 samples.

Results

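The genes described here encode the motors and kinases of cell division together with their wider families. They are the kinesins, the CENP proteins of the centromere and kinetochore, the Aurora, Polo-like and NIMA-related kinases, and the core of the spindle checkpoint. They were taken by symbol: every KIF, KIFC, CENP, AURK, PLK1 to PLK4, BUB and NEK gene in the count files, plus TTK, MAD2L1, NDC80, NUF2, TPX2, PRC1 and INCENP (CDCA8 is not analysed here). This gave 82 of 45320 counted genes. The rule reads symbols alone, but the set was put together with earlier results of these data known. Of the 82, 73 had enough counts to be tested. The other 9 (AURKC, NEK5, KIF25, KIF12, KIF6, KIF19, KIF5A, KIF5C and KIF1A) had at most 10 counts in any library, and KIF25, KIF6, KIF19 and KIF1A had 0 counts in all 12, under a floor of 3 counts that equals 0.0811 to 0.103 CPM (TMM-normalised counts, on the same scale for every library).

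RNA was sequenced from Ishikawa cells, an established human line of endometrial adenocarcinoma. Both arms carried a hairpin construct: shARID1A against ARID1A, which encodes a subunit of the SWI/SNF (BAF) nucleosome remodeller, and shNC as the control hairpin. For 8 h each arm received the vehicle DMSO, 10 nM of the estrogen 17-beta-estradiol (E2), or that dose of E2 with 100 nM of the estrogen receptor antagonist fulvestrant, giving 6 groups of 2 libraries. The labels write the zeros of the fulvestrant dose as letters, here taken to mean 100 nM. All cells had been kept without phenol red and in charcoal-stripped serum, which removes steroids. How many hairpins, infections or lines stand behind an arm, and whether the 2 libraries of a group are separate cultures, is not given in the sources used here. The p-values therefore measure the spread between these libraries, which may be technical, and ARID1A loss cannot be told apart from any other difference between the lines.

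Libraries held 28810351 to 38657162 counts. ARID1A had 53.8 to 61.7 CPM in shARID1A and 109.9 to 123.3 CPM in shNC. The keratins KRT8 (342.5 to 618.6 CPM) and KRT18 (193.3 to 320.3 CPM) were abundant in all 12 libraries, while the epithelial markers EPCAM (0.383 to 1.97 CPM), CDH1 (at most 0.658 CPM) and KRT19 (at most 0.172 CPM) were low or at 0, against the usual profile of an epithelial line. The 7 epithelial markers summed to 603.1 to 656.5 CPM in shARID1A and 946.3 to 1042 CPM in shNC, and the 8 stromal fibroblast markers to 50.1 to 53.3 CPM in shARID1A and 32.2 to 44.0 CPM in shNC. The stromal markers did not move together: of the 3 tested, COL1A1 rose (means 47.1 CPM in shARID1A and 31.1 CPM in shNC, log2 fold change 0.60, adjusted p = 4.64e-11), while PDGFRB (-0.55, adjusted p = 0.000471) and DCN (-2.91, adjusted p = 7.92e-08, at 0.175 CPM in shARID1A and 1.17 CPM in shNC) fell. Of the 5 epithelial markers tested 4 fell and 0 rose, with a median of -0.54. Immune and endothelial markers summed to at most 3.90 and 0.282 CPM, and THY1, CD3E, CD3D, KDR and EMCN were at 0. The part of this marker shift in the results on the mitotic genes was not tested.

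Kinesins are motor proteins that use ATP to move along microtubules or to take them apart. Some build and shorten the mitotic spindle, while others carry vesicles and organelles or work in cilia. CENP-A replaces histone H3 in the nucleosomes of the centromere, a platform of CENP proteins assembles on it, and the NDC80 complex at the outside of the kinetochore grips microtubule ends. MPS1 (encoded by TTK), BUB1, BUBR1 (BUB1B), BUB3 and MAD2 (MAD2L1) hold cells before anaphase until every chromosome is attached, and the Aurora A, Aurora B and PLK1 kinases drive entry into and passage through mitosis. RNA of most genes in this apparatus is scarce in G1 and peaks in G2 and M. Many of their promoters carry a cell cycle genes homology region (CHR), often near CCAAT boxes, through which the DREAM and MMB (MYBL2 with MuvB) complexes repress and then activate them. RNA from a mixed culture cannot tell fewer dividing cells from less RNA in each.

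To show this promoter arrangement, the 120 bases directly upstream of the RefSeq start (GRCh38.p14) are printed for 7 genes that fell with the knockdown. PRC1, which did not pass the test, is printed as well. Each is read 5′ to 3′ on the gene's strand, and capitals mark CHR letters (TTTGAA or TTTAAA) and CCAAT boxes on either strand, so that ATTGG is a CCAAT box on the opposite strand.
CENPF (GRCh38.p14, chr1:214603075-214603194, strand +): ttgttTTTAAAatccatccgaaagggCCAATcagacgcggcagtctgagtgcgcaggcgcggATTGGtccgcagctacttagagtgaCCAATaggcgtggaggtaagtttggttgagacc
CENPE (GRCh38.p14, chr4:103198344-103198463, strand −): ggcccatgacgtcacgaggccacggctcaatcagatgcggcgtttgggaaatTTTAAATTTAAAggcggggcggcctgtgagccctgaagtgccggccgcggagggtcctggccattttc
CENPA (GRCh38.p14, chr2:26785936-26786055, strand +): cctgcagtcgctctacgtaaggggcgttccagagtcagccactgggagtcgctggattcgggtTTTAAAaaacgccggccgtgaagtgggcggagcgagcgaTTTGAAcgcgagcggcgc
KIF20A (GRCh38.p14, chr5:138178992-138179111, strand +): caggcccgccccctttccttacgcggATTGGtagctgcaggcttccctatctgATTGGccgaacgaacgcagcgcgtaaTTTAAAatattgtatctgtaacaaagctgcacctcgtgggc
KIF23 (GRCh38.p14, chr15:69414229-69414348, strand +): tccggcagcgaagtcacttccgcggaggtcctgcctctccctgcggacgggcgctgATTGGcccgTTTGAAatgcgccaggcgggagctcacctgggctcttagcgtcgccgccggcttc
BUB1B (GRCh38.p14, chr15:40160949-40161068, strand +): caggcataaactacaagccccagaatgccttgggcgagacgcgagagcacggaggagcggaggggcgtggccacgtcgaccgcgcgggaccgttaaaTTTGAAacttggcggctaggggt
PLK1 (GRCh38.p14, chr16:23678769-23678888, strand +): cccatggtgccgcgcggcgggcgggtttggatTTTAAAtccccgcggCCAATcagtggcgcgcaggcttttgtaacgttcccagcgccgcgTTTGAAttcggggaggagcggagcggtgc
PRC1 (GRCh38.p14, chr15:90994536-90994655, strand −): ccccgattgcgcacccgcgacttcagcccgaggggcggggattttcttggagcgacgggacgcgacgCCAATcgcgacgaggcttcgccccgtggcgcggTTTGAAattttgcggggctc
CENPF joins 1 CHR match to 3 CCAAT boxes, KIF20A 1 to 2, and KIF23 1 to 1 within these windows. CENPE holds 2 CHR matches end to end with no CCAAT box, and CENPA 2 that lie apart. PLK1 has 2 CHR matches and 1 CCAAT box, and the single CHR match of PRC1 begins 20 bases before its start, close to that of BUB1B at 23 bases. All printed windows hold a CHR match, but not all genes that fell do. BUB1 and NEK2 fell and hold none, and in the longer promoters described below 21 of 33 genes that fell hold one.

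Most of the tested genes were lower in shARID1A, including the 7 genes of this set from the spindle checkpoint and the NDC80 complex. Averaged over the 3 treatments, 43 of the 73 tested genes fell and 10 rose, against 22.8% and 20.3% of all 17020 genes tested (43.1% in either direction). A gene was called at an adjusted p under 0.05. The median log2 fold change was -0.17 for the 73 genes and -0.02 for all genes. Sizes were modest: the 43 decreases ran from -0.11 to -0.89 with a median of -0.34, 3 of them exceeded 1.5-fold and 0 reached 2-fold. The 10 increases ran from 0.16 to 0.51 with a median of 0.31. In 24 genes all 6 shARID1A libraries lay below all 6 shNC libraries and in 5 all lay above, against 10.6% and 11.4% of all genes. Leaving out any of the 12 libraries in turn left 35 to 44 genes lower and 9 to 11 higher.

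**Figure D1:**
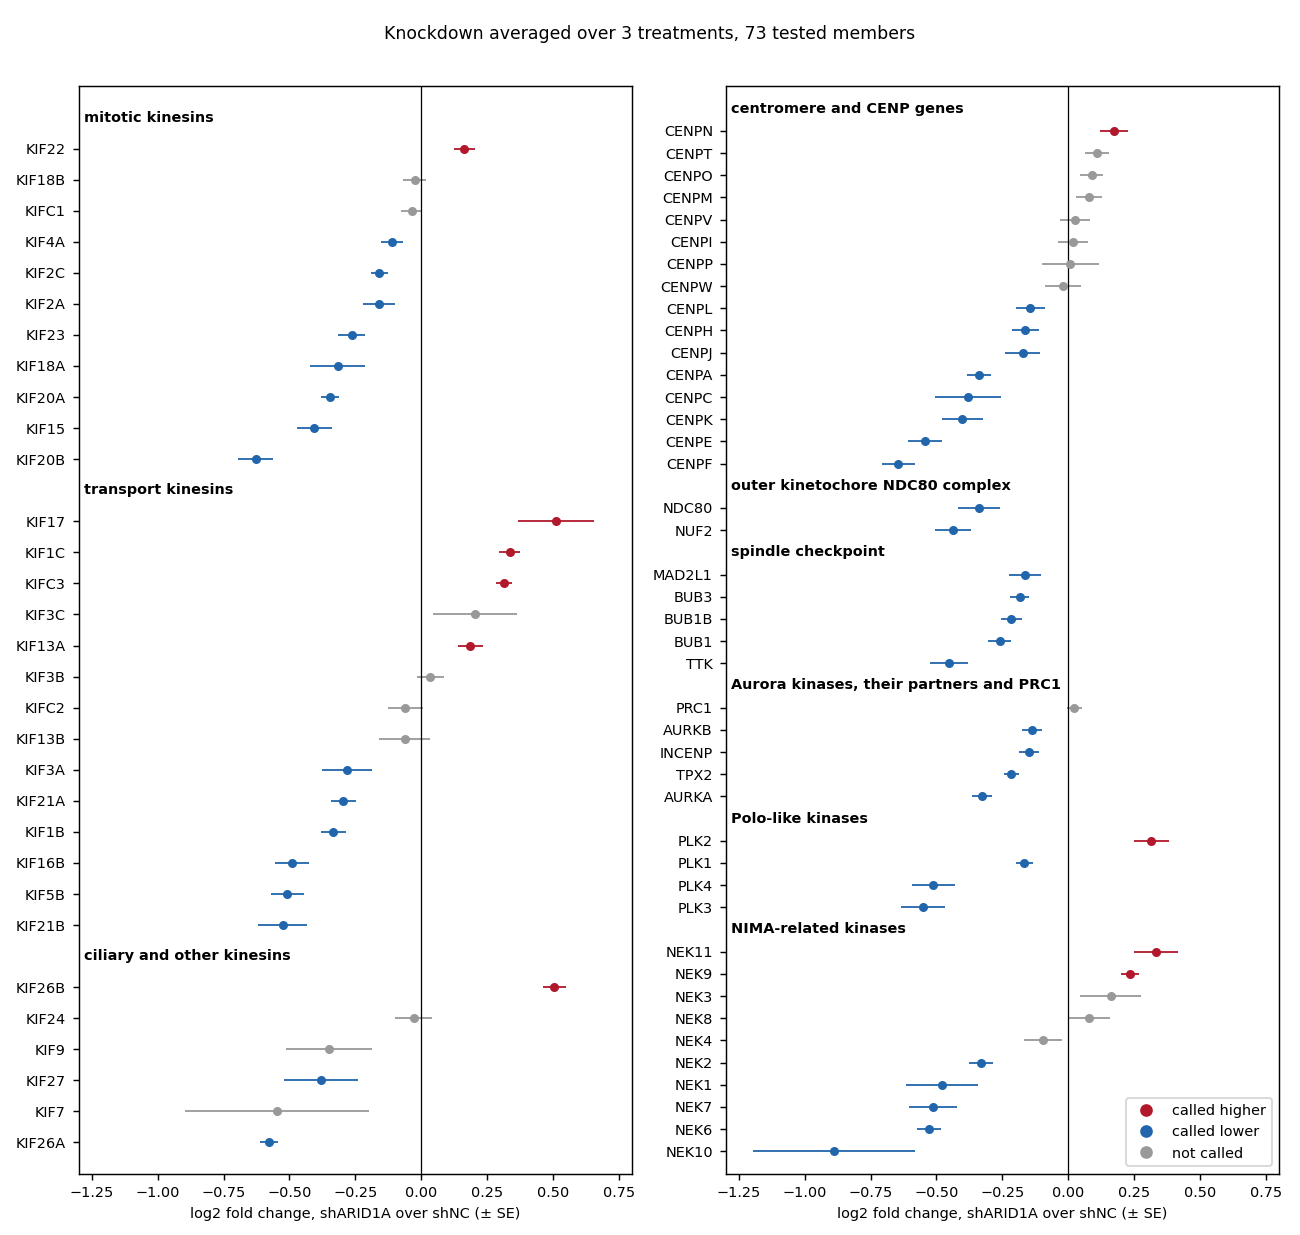
Log2 fold change of shARID1A over shNC, averaged over 3 treatments, for the 73 tested genes by role, with bars of 1 SE on either side. Blue genes were called lower (43), red genes higher (10) and grey genes were not called (20), and the checkpoint and NDC80 genes are all blue.

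Among the mitotic kinesins 8 of 11 fell (72.7%, against 22.8% of all genes) and 1 rose (9.09%, against 20.3%). The other 2 were not called, and the median was -0.16. KIF20A, the MKLP2 motor that takes Aurora B to the central spindle, had 146.7 to 155.7 CPM (median 149.2) in shARID1A and 183.9 to 197.6 CPM (median 191.2) in shNC. The arms did not overlap, and the log2 fold change was -0.35 (SE 0.03, adjusted p = 3.01e-10; hg19 chromosome 5, 137514408 to 137523354). KIF20B, a related motor of cytokinesis, had 25.1 to 38.6 CPM (median 33.5) in shARID1A and 41.2 to 56.2 CPM (median 53.7) in shNC. Its decrease was the deepest of the mitotic kinesins at -0.63 (SE 0.07, adjusted p = 2.46e-09), also without overlap. KIF23, the MKLP1 subunit of centralspindlin, had 86.2 to 106.3 CPM (median 97.6) in shARID1A and 103.4 to 134.0 CPM (median 114.6) in shNC. Only the highest shARID1A library passed the lowest shNC library, and the log2 fold change was -0.26 (SE 0.05, adjusted p = 9.14e-05). KIF15, a motor that helps keep spindle poles apart, had 17.9 to 22.3 CPM (median 20.1) in shARID1A and 21.9 to 30.9 CPM (median 27.1) in shNC, a change of -0.41 (SE 0.06, adjusted p = 5.02e-06) with slight overlap. KIF18A, which damps chromosome movements at metaphase, was at 6.90 to 9.51 CPM (median 7.70) in shARID1A and 6.80 to 11.9 CPM (median 10.8) in shNC, with wide overlap and a change of -0.32 (SE 0.10, adjusted p = 0.013).

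The microtubule depolymerases fell less. KIF2C (MCAK) changed by -0.16 (adjusted p = 0.000173) and KIF2A by -0.16 (adjusted p = 0.0326), and the chromokinesin KIF4A by -0.11 (adjusted p = 0.0339). Counts of KIF4A are uncertain, since reads may be shared with the near-identical retrocopy KIF4B. The minus-end motor KIFC1 (HSET) stood at -0.04 (SE 0.04, adjusted p = 0.471) and KIF18B at -0.02 (adjusted p = 0.69), neither called. The pseudogene RPL12P1 overlaps 25.3% of the counted exon bases of KIFC1. The exception was KIF22 (Kid), a chromosome-binding motor that pushes arms toward the spindle equator. It had 130.2 to 144.2 CPM (median 140.3) in shARID1A and 116.2 to 134.1 CPM (median 123.6) in shNC, and it rose by 0.16 (SE 0.04, adjusted p = 0.0011) with overlap between the arms. Summed over the 11 genes, the level was 880.4 to 930.0 CPM in the shARID1A libraries and 1001 to 1048 CPM in the shNC libraries.

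Of the 16 tested CENP genes 8 fell (50%, against 22.8% of all genes) and 1 rose (6.25%, against 20.3%). The other 7 were not called. The deepest decreases belonged to CENPF and CENPE, which encode large proteins of the outer kinetochore in mitosis. CENPF (hg19 chromosome 1, 214776538 to 214830753) had 31 and 27.5 CPM with DMSO, 28.3 and 25.7 under E2 and 27.9 and 32.1 under E2 plus fulvestrant in shARID1A. In shNC the values were 37.5 and 46.9 CPM with DMSO, 39.8 and 47 under E2 and 46.6 and 52.2 under E2 plus fulvestrant. Every shARID1A library lay below every shNC library, and the change was -0.64 (SE 0.06, adjusted p = 5.84e-10). Counts of CENPF come from 3015 exon bases, 25.8% of the exon bases of the gene in GENCODE v29. CENPE, a kinesin that walks chromosomes to the equator, had 14.9 to 23.7 CPM (median 21.1) in shARID1A and 26.1 to 32.1 CPM (median 28.7) in shNC, again without overlap. It changed by -0.54 (SE 0.06, adjusted p = 2.41e-08).

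CENPA, the centromeric histone itself, had 50.4 to 60.1 CPM (median 52.9) in shARID1A and 63.9 to 76.5 CPM (median 67.9) in shNC, which did not overlap (-0.34, SE 0.05, adjusted p = 3.58e-07). Within the constitutive network that binds it, CENPK changed by -0.40 (adjusted p = 6.77e-05), CENPC by -0.38 (adjusted p = 0.0137), CENPH by -0.16 (adjusted p = 0.00967) and CENPL by -0.14 (adjusted p = 0.0298). CENPJ, a protein of centriole growth and not of the centromere, changed by -0.17 (adjusted p = 0.0349). CENPN, which reads the CENP-A nucleosome, was the 1 that rose, at 35 to 41.7 CPM (median 40.0) in shARID1A and 32.7 to 37.5 CPM (median 35) in shNC with overlap (0.17, SE 0.05, adjusted p = 0.00911). Its call was lost without replicate 2 of shARID1A with E2 plus fulvestrant (adjusted p = 0.0598). The remaining genes did not pass the test: CENPT 0.11, CENPO 0.09, CENPM 0.08, CENPV 0.02, CENPI 0.02, CENPP 0.01 and CENPW -0.02, with standard errors of 0.04 to 0.11. Among the CENP genes, then, some fell, 1 rose and others did not pass the test. Other genes' exons take up 10.9% to 18.7% of the counted exon bases of CENPT, CENPV, CENPP and CENPO, and such reads cannot be given to either gene.

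NUF2 and NDC80, the subunits of the NDC80 complex in this set, fell. Its other subunits SPC24 (-0.03) and SPC25 (0.06), from the list of other mitosis genes below, were not called. NUF2 had 25.8 to 34 CPM (median 28.9) in shARID1A and 32.8 to 49.6 CPM (median 38.2) in shNC, with slight overlap and a change of -0.44 (SE 0.07, adjusted p = 3.82e-06). NDC80 (HEC1) had 10.5 to 13.7 CPM (median 11.2) in shARID1A and 12 to 17 CPM (median 14.5) in shNC, overlapping, with a change of -0.34 (SE 0.08, adjusted p = 0.000627). All 5 spindle checkpoint genes of the set fell as well, against 22.8% of all genes, with a median of -0.22. The checkpoint gene MAD1L1 (0.06), from the list of other mitosis genes, was not called. TTK, the kinase at the head of the checkpoint, had 12 to 17.1 CPM (median 14.8) in shARID1A and 18.9 to 22.8 CPM (median 19.6) in shNC without overlap, and it changed most (-0.45, SE 0.07, adjusted p = 4.96e-06). BUB1, the kinase that marks the inner centromere for Aurora B, had 107.2 to 130.6 CPM (median 118.0) in shARID1A and 127.5 to 158.7 CPM (median 142.5) in shNC (-0.26, SE 0.04, adjusted p = 1.09e-05), and the ranges overlapped slightly.

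BUB1B, the checkpoint inhibitor of the anaphase-promoting complex, had 75.4 to 85.8 CPM (median 77.4) in shARID1A and 86.3 to 99.7 CPM (median 89.8) in shNC. These ranges were separate, and the change was -0.22 (SE 0.04, adjusted p = 5.7e-05), with 10.4% of its counted exon bases shared with another gene. For BUB3, their common partner, the values were 131.3 to 139.2 CPM (median 135.2) in shARID1A and 147.3 to 168.0 CPM (median 150.6) in shNC, also separate (-0.18, SE 0.04, adjusted p = 0.000103). MAD2L1 had 31.7 to 41.2 CPM (median 37.1) in shARID1A and 37.6 to 47.9 CPM (median 40.7) in shNC, with overlap and the weakest call of the 5 (-0.16, SE 0.06, adjusted p = 0.0268). That call was lost (adjusted p = 0.0519 to 0.179) without replicate 2 of shNC in any of the 3 treatments and without, in shARID1A, replicate 2 under DMSO, replicate 2 under E2 or replicate 1 under E2 plus fulvestrant. The 5 genes summed to 363.4 to 404.7 CPM in shARID1A and 420.2 to 497.1 CPM in shNC.

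In the Aurora group 4 of the 5 tested genes fell (80%, against 22.8% of all genes). AURKA, the kinase of centrosome maturation and spindle poles (hg19 chromosome 20, 54944721 to 54967271), had 131.1 to 138.1 CPM (median 134.9) in shARID1A and 156.7 to 181.2 CPM (median 168.2) in shNC without overlap (-0.33, SE 0.04, adjusted p = 1.63e-08). TPX2, the spindle protein that activates it, had 445.1 to 465.3 CPM (median 449.4) in shARID1A and 502.5 to 538.6 CPM (median 526.5) in shNC, likewise apart (-0.22, SE 0.03, adjusted p = 1.92e-07). The chromosomal passenger genes of this set, AURKB and INCENP, moved less. Another passenger gene, BIRC5 from the list of other mitosis genes, stood at -0.24 and was not called. AURKB, the passenger kinase, had 110.1 to 125.8 CPM (median 119.7) in shARID1A and 123.4 to 139.5 CPM (median 130.1) in shNC, which overlapped (-0.14, SE 0.04, adjusted p = 0.00403). Its scaffold INCENP had 101.0 to 111.4 CPM (median 108.9) in shARID1A and 116.0 to 124.9 CPM (median 119.7) in shNC (-0.15, SE 0.04, adjusted p = 0.00184). PRC1, which bundles the antiparallel microtubules of the anaphase midzone, had 381.5 to 419.1 CPM (median 399.0) in shARID1A and 380.9 to 418.2 CPM (median 391.3) in shNC. The arms overlapped throughout, and its difference of 0.02 (SE 0.03, adjusted p = 0.562) was smaller than the spread between libraries.

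PLK1, the kinase that triggers mitotic entry, had 176.2 to 194.0 CPM (median 186.1) in shARID1A and 198.3 to 226.9 CPM (median 207.0) in shNC. All 6 shARID1A libraries lay below all 6 shNC libraries, with a change of -0.17 (SE 0.03, adjusted p = 0.000146). PLK4, the master kinase of centriole duplication, had 13.7 to 21.3 CPM (median 18.4) in shARID1A and 22.9 to 29.3 CPM (median 25.2) in shNC (-0.51, SE 0.08, adjusted p = 4.56e-06). PLK3, a stress-responsive member, had 11.5 to 17.5 CPM (median 13.9) in shARID1A and 18.2 to 24.9 CPM (median 20.2) in shNC (-0.55, SE 0.08, adjusted p = 1.81e-06). PLK3 and PLK4 were also separate between the arms. PLK2, another stress-inducible member with no peak in mitosis, rose instead. It had 22.3 and 19.7 CPM with DMSO, 17.1 and 18.2 under E2 and 22.6 and 23.5 under E2 plus fulvestrant in shARID1A, and 16.4 and 16 CPM with DMSO, 19 and 17 under E2 and 14.6 and 16 under E2 plus fulvestrant in shNC. The averaged change was 0.31 (SE 0.07, adjusted p = 0.000235), made up of 0.37 in DMSO, -0.02 under E2 and 0.59 once fulvestrant was added. With E2 the arms overlapped.

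**Figure D2:**
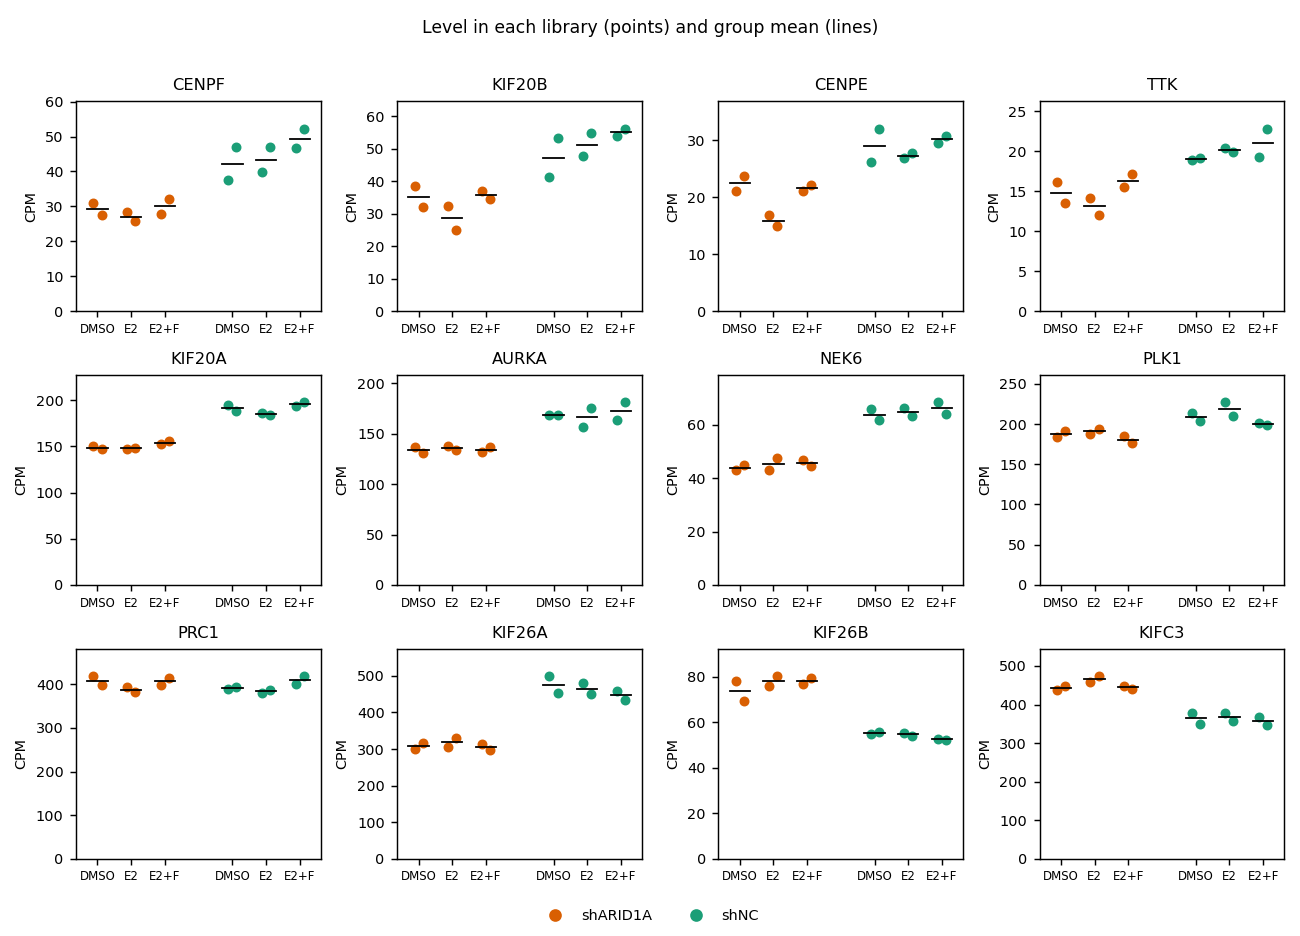
CPM in each of the 12 libraries (points) with the mean of each group of 2 (lines) for 12 genes, shARID1A in orange at left and shNC in green at right, by treatment (E2+F is E2 plus fulvestrant). CENPF, KIF20B, CENPE, TTK, KIF20A, AURKA, NEK6, PLK1 and KIF26A are lower in all 6 shARID1A libraries, KIF26B and KIFC3 are higher in all 6, and PRC1 overlaps.

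Of the 10 NIMA-related kinases tested 5 were lower (50%, against 22.8% of all genes) and 2 higher (20%, against 20.3%). NEK2, the kinase that splits the centrosomes before mitosis, had 51.6 to 58 CPM (median 56) in shARID1A and 65.1 to 74.6 CPM (median 68.5) in shNC (-0.33, SE 0.05, adjusted p = 4.88e-07). Its arms did not overlap. NEK9, NEK6 and NEK7 form a mitotic relay in which NEK9 activates the other two, and they did not move together. NEK6 had 43 to 47.4 CPM (median 44.7) in shARID1A and 61.7 to 68.3 CPM (median 65) in shNC (-0.53, SE 0.05, adjusted p = 4.79e-11). NEK7 had 7.40 to 11.2 CPM (median 7.94) in shARID1A and 10.1 to 13.2 CPM (median 12.1) in shNC with overlap (-0.51, SE 0.09, adjusted p = 2.67e-05). NEK9, the upstream kinase, was at 164.3 to 182.6 CPM (median 172.4) in shARID1A and 140.7 to 150.6 CPM (median 147.3) in shNC, entirely above the control arm (0.24, SE 0.03, adjusted p = 1e-06). NEK11, a DNA damage checkpoint kinase, rose too, with 9.73 to 12.4 CPM (median 11.2) in shARID1A and 8.01 to 9.65 CPM (median 8.97) in shNC (0.33, SE 0.08, adjusted p = 0.00146). NEK1, a ciliary kinase, changed by -0.48 (SE 0.14, adjusted p = 0.00467) at levels of at most 6.06 CPM. NEK10 fell by the greatest amount of all (-0.89, SE 0.31, adjusted p = 0.0181), but its means were 0.460 CPM in shARID1A and 0.856 CPM in shNC.

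Of the 14 kinesins of interphase transport tested 6 fell (42.9%, against 22.8% of all genes) and 4 rose (28.6%, against 20.3%). Their median was -0.06. KIF5B, the ubiquitous heavy chain of conventional kinesin-1, had 22.2 to 27.3 CPM (median 24.5) in shARID1A and 30.4 to 38.3 CPM (median 36.6) in shNC (-0.51, SE 0.06, adjusted p = 4.97e-08). The arms were separate, but its counts come from only 494 exon bases, 8.41% of the exon bases of the gene in GENCODE v29. KIF16B, a motor of early endosomes, had 15.9 to 19.8 CPM (median 18.5) in shARID1A and 23.2 to 28.3 CPM (median 25.3) in shNC (-0.49, SE 0.06, adjusted p = 1.8e-07). KIF21B was lower without overlap, with 6.0 to 7.19 CPM (median 6.51) in shARID1A and 8.43 to 10.5 CPM (median 9.37) in shNC (-0.53, adjusted p = 2.06e-05). KIF1B, a carrier of mitochondria and vesicle precursors, changed by -0.33 (adjusted p = 6.42e-07), the cortical microtubule regulator KIF21A by -0.30 (adjusted p = 7.57e-06) and the intraflagellar motor KIF3A by -0.28 (adjusted p = 0.0151).

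Transport kinesins that rose included KIFC3, a minus-end motor of adherens junctions, with 438.6 to 473.8 CPM (median 448.7) in shARID1A and 346.7 to 378.4 CPM (median 362.2) in shNC. No library overlapped across the arms (0.31, SE 0.03, adjusted p = 5.98e-10). KIF1C, a fast carrier of secretory vesicles, had 106.7 to 119.9 CPM (median 117.1) in shARID1A and 84.8 to 97.7 CPM (median 91) in shNC, also separate (0.33, SE 0.04, adjusted p = 5.22e-08). KIF13A, which moves endosomes toward recycling, had 73.9 to 93.4 CPM (median 84.7) in shARID1A and 65.4 to 83.5 CPM (median 74.8) in shNC with overlap (0.19, adjusted p = 0.00142). KIF17 had 3.42 to 5.87 CPM (median 4.82) in shARID1A and 2.81 to 3.79 CPM (median 3.26) in shNC, overlapping, with a change of 0.51 (SE 0.14, adjusted p = 0.00434) that was not called without replicate 2 of shARID1A with E2 (adjusted p = 0.0589). Among ciliary and other kinesins the 2 related and atypical motors KIF26A and KIF26B went opposite ways. KIF26A had 296.0 to 330.8 CPM (median 310.3) in shARID1A and 434.9 to 499.6 CPM (median 456.3) in shNC, the smallest p of all 73 genes (-0.58, SE 0.03, adjusted p = 3.67e-15). KIF26B had 69.4 to 80.3 CPM (median 77.5) in shARID1A and 52.3 to 55.5 CPM (median 54.3) in shNC, entirely higher (0.50, SE 0.04, adjusted p = 3.83e-11). KIF27 fell (-0.38, adjusted p = 0.0279), and KIF7, KIF9 and KIF24 were not called.

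Per kilobase of counted exon (RPKM), TPX2 stood highest in both arms, at 125 ± 2.14 in shARID1A and 145 ± 3.71 in shNC (SD, n = 6 each), above all others beyond the spread. In shNC AURKA (88.8 ± 4.56) and PRC1 (87.9 ± 2.93) followed at levels that did not differ beyond their spread. In shARID1A PRC1 (89.4 ± 3.12) and KIF1C (87.6 ± 3.83) came next and did not differ beyond their spread, above AURKA (70.8 ± 1.51). The lowest tested genes were NEK10 (0.0492 ± 0.0181 in shARID1A, 0.0915 ± 0.0273 in shNC) and KIF7 (0.217 ± 0.0594 in shARID1A, 0.327 ± 0.129 in shNC). These ranks depend on the gene models used, since 17 of the 82 genes were counted over less than 50% of their GENCODE v29 exon bases. The fold changes of such genes rest on the counted part alone. Beside KIF5B and CENPF they include KIF1C (15.3%), BUB3 (24.2%), KIF21B (25.2%), MAD2L1 (27.5%), NEK7 (29.3%) and NEK6 (35.0%).

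Decreases also outnumbered increases within each treatment. With DMSO 22 genes fell and 7 rose, against 9.5% and 9.7% of all genes. With E2 these numbers were 29 and 5 (13.8% and 13.4% of all genes), and with E2 plus fulvestrant 26 and 6 (12.8% and 11.4%). The medians were -0.16, -0.20 and -0.19. Of the 73 genes, 47 had a negative value in all 3 treatments and 10 a positive value. Called lower in all 3 were AURKA, BUB1, CENPE, CENPF, KIF16B, KIF1B, KIF20A, KIF20B, KIF26A, KIF5B, NEK2, NEK6, PLK3, PLK4, TPX2 and TTK, 16 genes, and called higher in all 3 were KIF1C, KIF26B, KIFC3 and NEK9. No gene, 0 of 73, was called in opposite directions in different treatments. Agreement across treatments was not counted over all genes, so whether it was greater here than elsewhere was not tested.

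Counts within a treatment rest on 2 libraries an arm. The shares of all genes called in the fits without a library are not given here. A general loss of calls therefore cannot be told apart from one particular to these genes. In DMSO the 22 became 10 without replicate 2 of shNC, 12 without replicate 2 of shARID1A and 13 without its replicate 1. The 7 higher became 2 without replicate 2 of shNC, 3 without its replicate 1, and 4 and 3 without replicates 2 and 1 of shARID1A. With E2 the 29 became 18 without replicate 2 of shARID1A and 19 without replicate 2 of shNC, and with E2 plus fulvestrant the 26 became 17 without replicate 2 of shNC. AURKA was steady at -0.33 with DMSO, -0.29 under E2 and -0.36 under both agents, as were TPX2 (-0.22, -0.21 and -0.23) and NEK6 (-0.54, -0.51 and -0.54). CENPE varied more (-0.37, -0.79 and -0.48), and so did KIF20B (-0.42, -0.84 and -0.62).

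Other genes of division and replication are set beside these. Their lists were written from general knowledge, but with earlier results of these data known, so they are not independent of the data. Of 53 other mitosis genes tested 34 fell and 4 rose (CDCA5, PTTG1, FOXM1 and ZWINT), which is 64.2% and 7.55%, with a median of -0.22. ASPM, a spindle pole protein, changed by -0.76 (SE 0.08, adjusted p = 1.47e-09), the kinetochore scaffold CASC5 (KNL1) by -0.54 (SE 0.05, adjusted p = 7.84e-10) and the cleavage furrow protein ANLN by -0.49 (SE 0.04, adjusted p = 1.98e-11). Cyclin B2 (CCNB2) changed by -0.31 (SE 0.03, adjusted p = 8.25e-09). Of 27 replication genes 4 fell (CDC6, RFC5, POLA1 and CCNE2) and 11 rose, which is 14.8% and 40.7%, with a median of 0.06. The replicative helicase subunits MCM5, MCM2 and MCM3 changed by 0.25, 0.23 and 0.18. The partners of transport motors, 23 kinesin light chain, dynein and dynactin genes, had 3 lower and 6 higher, which is 13.0% and 26.1%, with a median of 0.05. These shares stand against 22.8% lower and 20.3% higher of all genes. The dynactin subunits DCTN3 and DCTN1 changed by 0.50 and 0.30, the dynein heavy chain DYNC1H1 by -0.28 and DYNLT3, also from this list, by -0.71. Summed CPM were 5288 to 5529 in shARID1A and 5856 to 6276 in shNC for the other mitosis genes, and 4924 to 5154 in shARID1A and 4600 to 4779 in shNC for the replication genes. The lists were not tested against each other.

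**Figure D3:**
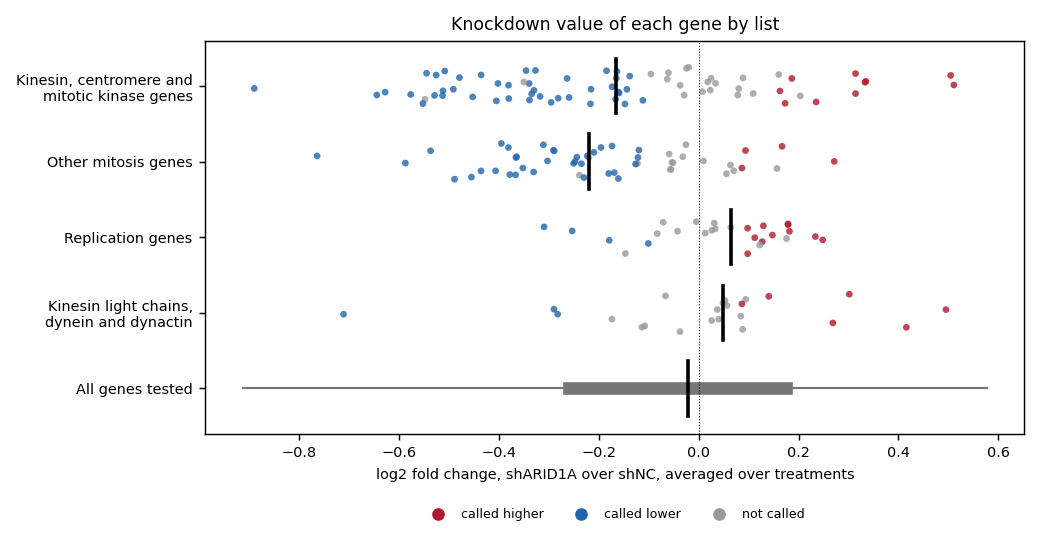
Log2 fold change of shARID1A over shNC averaged over treatments, 1 point per tested gene, with the median of each list as a black line. For all 17020 genes the thick bar spans the 25th to 75th percentile and the thin line the 5th to 95th, and the medians of both mitotic lists (-0.17 and -0.22) lie left of that of all genes (-0.02) while the replication list (0.06) lies right of it.

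RefSeq promoters, 250 bases before to 50 after the start, were matched for 65 of the 82 genes. A CHR motif (TTTGAA or TTTAAA, both strands, where TTTAAA is its own reverse complement) stood in 27 of the 65 (41.5%), against 27.9% of the 27305 genes in the table. Mitotic kinesins held it in 9 of 11 cases (81.8%), CENP genes in 6 of 12, the NDC80 and NUF2 pair in both, NIMA-related kinases in 2 of 10, transport kinesins in 2 of 12, and ciliary and other kinesins in 0 of 7. CCAAT on either strand stood in 34 of 65 (52.3%, against 39.7% of all genes), and both motifs in 17 (26.2%, against 11.2%). The E2F letters TTTGGCGC or TTTCCCGC stood in 3 of 65 (4.62%, against 2.75%). Of the 27 tested genes with a CHR match 21 fell, 1 rose (CENPN) and 5 were not called, with a median of -0.32. Of the 31 tested without it 12 fell, 7 rose and 12 were not called, with a median of -0.03. Among all 17020 genes tested 22.8% fell and 20.3% rose, and these shares were not computed by motif. Motif and role go together here, and no test was made of the difference. A match says only that the letters are present.

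**Figure D4:**
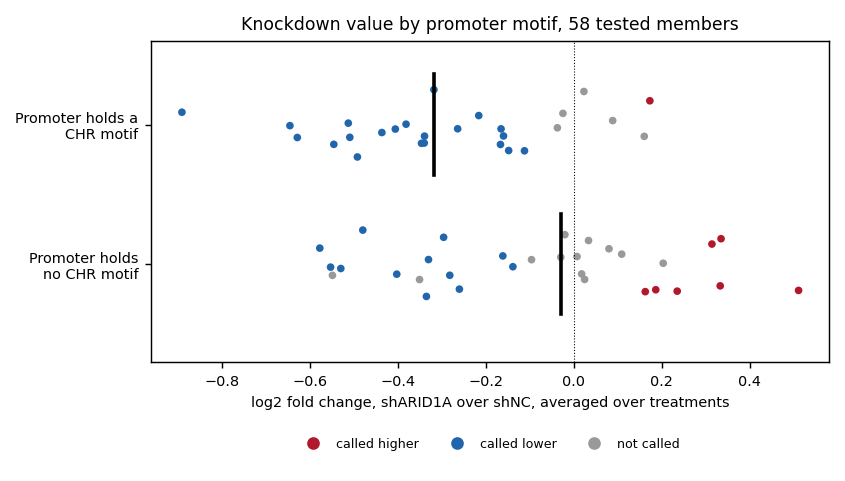
Log2 fold change of shARID1A over shNC averaged over treatments for the 58 tested genes with a RefSeq promoter, by presence of a CHR motif, with the median as a black line. The median is -0.32 for the 27 genes with the motif and -0.03 for the 31 without, and 7 of the 8 genes called higher lie in the row without it. Among all 17020 genes tested 22.8% were called lower and 20.3% higher.

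The comparisons of E2 and fulvestrant called none of these genes in the main edgeR fit. For E2 against DMSO averaged over the arms, 0 of 73 genes were called in either direction (all genes: 0.00588% higher and 0% lower). An unadjusted p under 0.05 was found for 2 (all genes: 696 of 17020), and DESeq2 called 0. Adding fulvestrant to E2 gave 0 calls in the main edgeR fit (all genes: 0.0235% higher and 0.0411% lower) and 2 with DESeq2. With no filter on low counts, edgeR called 3 higher: CENPE, KIF13A and KIF21A (adjusted p = 0.0393, 0.0498 and 0.0428). The shares of all genes called with DESeq2 and with no filter are not given here. An unadjusted p under 0.05 was found for 15 of the 73 genes, against 2489 of all 17020. For E2 plus fulvestrant against DMSO 0 were called (all genes: 0% each way), and 0 with DESeq2. An unadjusted p under 0.05 was found for 3 (all genes: 1422 of 17020). Medians over the 73 genes were -0.02, 0.05 and 0.02 for these comparisons.

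CENPE had the smallest p for both E2 steps. It stood at 21.2 and 23.7 CPM with DMSO, 16.9 and 14.9 under E2 and 21.1 and 22.2 under E2 plus fulvestrant in shARID1A, and at 26.1 and 32.1 CPM with DMSO, 26.9 and 27.7 under E2 and 29.6 and 30.8 under E2 plus fulvestrant in shNC. In shARID1A both E2 libraries lay below the other 4, while in shNC the E2 libraries lay within the range of the DMSO pair. Averaged over the arms its value was -0.29 for E2 against DMSO (SE 0.08, adjusted p = 0.999) and 0.30 for E2 plus fulvestrant against E2 (SE 0.08, adjusted p = 0.101). KIF21A and KIF13A, the 2 DESeq2 calls (adjusted p = 0.0483 and 0.0446), had 0.20 and 0.19 for the step from E2 to E2 plus fulvestrant in edgeR (adjusted p = 0.131 and 0.131). NDC80 had 0.29 (adjusted p = 0.16) and KIF5B 0.20 (adjusted p = 0.218). For E2 plus fulvestrant against DMSO the smallest p belonged to KIF21A (0.16), CENPK (0.25), KIF15 (0.18), BUB1 (0.11) and NDC80 (0.18), and for E2 against DMSO, after CENPE, to KIF13A (-0.12), BUB1B (-0.10), KIF3A (-0.21) and CENPW (-0.15).

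Whether the arms responded differently was tested by the interaction. For the E2 effect 0 of 73 genes were called (all genes: 0.0235% higher and 0.00588% lower), and DESeq2 called 0. An unadjusted p under 0.05 was found for 10 (all genes: 1079 of 17020). KIF18A, at 6.90 and 7.19 CPM with E2 and 7.93 and 9.51 with DMSO in shARID1A, and 11.4 and 11.6 CPM with E2 and 6.80 and 10.1 with DMSO in shNC, had a difference of -0.76 (SE 0.25, adjusted p = 0.626). CENPA had 0.30 (SE 0.11, adjusted p = 0.752), with KIF20B at -0.43, CENPE at -0.42 and NEK1 at -0.82. For the fulvestrant effect 0 were called (all genes: 0.00588% each way), and DESeq2 called 0. An unadjusted p under 0.05 was found for 2 (all genes: 592 of 17020). PLK2 had the smallest p, with a gap of 0.61 (SE 0.16, adjusted p = 1), where adding fulvestrant gave 0.38 in shARID1A and -0.23 in shNC, neither called. CENPA had -0.25, KIF18B 0.22, CENPE 0.31 and KIF3C -0.75. These differences did not pass the test with 2 libraries a group, and the absence of a call does not show that the arms responded alike.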

How the data were processed

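Poly(A) RNA libraries were prepared with a TruSeq mRNA kit from TRIZOL extracts, per the labels' protocols. The submitters' processing notes name Trim Galore and cutadapt, the aligner Subread (2.0.0) and the build hg19. The deposited values are raw counts of reads per gene from featureCounts 2.0.0, per the file headers, with no option for strand, read pairs or multiple alignments, so overlapping genes and near-identical copies are uncertain. In all, 27 of the 82 genes share exon bases with another gene, 11 of them over 10%.

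The members and lists were chosen with earlier results of these data known. Counts were fitted with edgeR 4.0.16 in R 4.3.3 (TMM, filterByExpr, quasi-likelihood F-test, 1 mean for each of 6 groups). P-values were Benjamini-Hochberg adjusted over 17020 genes for each of 15 comparisons. DESeq2 1.42.0, other scalings and filters, a replicate block and leaving out each library were alternatives. Replicate pairs differed 5.19 to 7.97 times more than counting error (chi-square per degree of freedom over 12461 genes), so none was treated as a duplicate. Intervals were not computed, and the floor of 3 counts covers counting error only. Genes named first were up to 12 that changed most each way at a mean of at least 1 CPM, and 19 chosen genes. Of the chosen genes KIF11 was not in the count files. The 5 smallest p-values of each hormone comparison were added. Library values, or ranges with medians, are given for most of these genes, and the fold change for the others. Promoters come from RefSeq (GRCh38.p14), gene positions from the files (hg19).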

Additional observations from a re-analysis of the deposited data

How the results depend on the processing

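Over 62 single-gene values and their 1137 alternatives, 0 reversed, 1123 kept their direction and side of the threshold, 8 lost the call (MAD2L1 in 6 leave-one-out fits, KIF17 and CENPN in 1 each) and 6 gained one (KIF13A, KIF21A and CENPE with fulvestrant). For the knockdown averaged over treatments, the other settings gave 42 to 43 genes lower and 10 to 12 higher. Leaving out 1 library gave, for the knockdown in DMSO, 10 to 22 lower and 2 to 7 higher, with E2 18 to 30 lower and 4 to 6 higher, and with E2 plus fulvestrant 17 to 26 lower and 5 to 6 higher. For E2 plus fulvestrant against E2, the 0 genes called higher became 3 with no filter on low counts, 2 with DESeq2, and 0 to 1 without a library. These fits hold fewer libraries or test other gene sets, and otherwise the cause was not tested. The shares of all genes called in the alternative fits are not given here, so these counts cannot be set against them. Where a fit leaves 1 library in a group, that library is assumed to vary like the others. With the replicate number as a block, counts were 43 lower and 10 higher (averaged), 22 and 7 (DMSO), 30 and 6 (E2) and 26 and 6 (E2 plus fulvestrant), and 0 for the hormone comparisons. Same-numbered libraries correlated from -0.222 to 0.276 over 15 pairs of groups, 7 of them over 0.1, and the numbers were therefore not taken to pair libraries across all groups. In all 3 shNC groups replicate 2 lay above replicate 1 in the median of 23 mitotic genes, by 0.02 to 0.06 (log2) on either side of the group mean, and a batch shared within an arm was not tested. Low counts limit the genes under about 1 CPM, such as NEK10.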
